A study of Mus musculus with 8 samples.

Results

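Coding promoters whose DNA was neither nearly free of methylation nor mostly methylated were followed in mouse breast tumors under 4 treatments. A promoter was the stretch from 1000 bp before to 1000 bp after the start site of an autosomal protein-coding gene, and it was tested when at least 3 of its cytosines had 10 or more reads in all 8 libraries. Of 20807 such genes, 11576 had a tested promoter. Its methylation was the methylated share of all reads over those cytosines. Promoters of intermediate methylation were chosen by a value of at least 20% and below 60% in vehicle replicate 1, which took 1148 of the 11576 (9.92%). Another 9753 promoters (84.3%) lay below 20% and 675 (5.83%) at 60% or more. Vehicle replicate 1 therefore describes the choice only, and the drug comparisons reported here used the other 7 libraries. At the lower limit, Npbwr1 and Cbln3 were included at 20%, while Rspo2 at 19.98% and Dgki at 19.97% were not. At the upper limit, Hoxa11 at 59.93% and Mmp2 at 59.91% were included, and Des at 60% and Smc1b at 60.02% were not.

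NIC-5231, a line from an ErbB2-driven mammary tumor, was grown in mammary fat pads of immunodeficient NSG mice, which were 5 to 7 weeks old at injection. The 4 groups, of 5 mice each, received intraperitoneal injections of vehicle (saline with PEG and DMSO), of C29 (10 mg/kg), of 5-azadC (1 mg/kg), or of the combination, every 2 days from the time tumors could be felt until the largest reached its size limit. C29 is an inhibitor of the nuclear receptor ERRα, and 5-azadC is the nucleoside decitabine, which traps DNA methyltransferases once it is built into DNA. Reduced representation bisulfite sequencing (RRBS) gave 2 libraries per group, each from DNA pooled from 2 mice. The model has limits: it is a single line, the pools hide differences between mice, and host blood, vessel and stroma cells are also of mouse origin, so their DNA was read together with that of the tumor cells. P-values across libraries measure only the spread between these pools.

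The libraries held between 51359825 and 81299065 reads summed over cytosines. A median promoter of intermediate methylation was covered by 456.5 reads in C29+5-azadC replicate 2, the shallowest library, and by 735 reads in 5-azadC replicate 2, the deepest. Its 95% Wilson interval had a median width of 5.96 to 7.45 percentage points in the different libraries. Such intervals cover counting error only, since PCR copies of a molecule were counted as separate reads. Of the 1148 promoters, 994 had at least 100 reads in each library. Tested cytosines were shared with another tested promoter in 66 of them, and joining promoters of the set that shared cytosines left 1122 separate regions.

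For the labelled tissue, promoters of cell type markers were read, where RRBS gives methylation and not expression. Of 10 epithelial markers 8 were tested, and 7 of these were below 20% in vehicle replicate 1, including Epcam (15.2% and 15.7% in the vehicle libraries), Krt18 (10.4% and 0%), Cdh1 (7.71% and 6.58%) and Cldn3 (0% in both). The share below 20% over all promoters was 84.3%, so this count does not tell epithelial tissue from another. Cldn4 was at 12.2% and, above that limit, 27.3%. The exception was Erbb2, at 69.0% and 63.2% in the vehicle libraries, on 33 cytosines and at least 5521 reads. The next deepest epithelial marker, Esrp1, had 24 cytosines and at least 1177 reads, and the cause of the depth at Erbb2 was not tested. None of 9 leukocyte markers was tested, and of 5 endothelial markers only Kdr was (12.8% and 24.7%). Of 5 fibroblast markers only Col1a2, a collagen gene of stroma cells, was tested, and it was of intermediate methylation (28.4% and 21%). The share of host cells was not measured, and in bulk DNA a partly methylated promoter in every cell and a mixture of methylated and unmethylated cells or alleles cannot be told apart by these values.

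In mammals, methyl groups are placed on the cytosine of CpG dinucleotides and copied to the new strand after replication by DNMT1. Promoters rich in CpG are mostly kept free of methylation, while promoters poor in CpG are often methylated where their gene is silent. Imprinted genes carry methylation on the allele of one parent, and promoters of developmental regulators, which Polycomb proteins keep silent in many tissues, often gain methylation in tumors.

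The sequences of 5 promoters described later are shown, because of the imprinted genes and of those whose libraries did not overlap they are among the ones with the most tested cytosines just before the start site. Their windows hold only some of the cytosines of the promoter, and values of window and promoter can differ. Each is the 300 bases before the start site in mm10/GRCm38 (RefSeq assembly GRCm38.p6), written 5′ to 3′ on the strand of the gene, and capitals mark the CpGs with a tested cytosine. Igf2r (chr17:12769665-12769964, minus strand) lies inside the antisense gene Airn, Gnas (chr2:174284020-174284319, plus strand) inside the antisense gene Nespas, and Zrsr1 (chr11:22971705-22972004, plus strand) inside Commd1 and Gm28048. Abca14 (chr7:120203661-120203960, plus strand) overlaps no other gene, and its last capital is the cytosine of a CpG that the window divides. Eef1akmt2 (chr7:132852674-132852973, minus strand) lies inside Fgfr2. None of the 5 windows overlaps an exon.
Igf2r: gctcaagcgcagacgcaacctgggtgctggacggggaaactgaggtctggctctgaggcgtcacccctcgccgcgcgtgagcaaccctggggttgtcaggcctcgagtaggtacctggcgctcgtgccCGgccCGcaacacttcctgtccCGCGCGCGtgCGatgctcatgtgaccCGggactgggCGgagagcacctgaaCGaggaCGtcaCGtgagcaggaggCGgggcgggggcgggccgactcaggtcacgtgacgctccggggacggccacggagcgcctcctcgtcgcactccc
Gnas: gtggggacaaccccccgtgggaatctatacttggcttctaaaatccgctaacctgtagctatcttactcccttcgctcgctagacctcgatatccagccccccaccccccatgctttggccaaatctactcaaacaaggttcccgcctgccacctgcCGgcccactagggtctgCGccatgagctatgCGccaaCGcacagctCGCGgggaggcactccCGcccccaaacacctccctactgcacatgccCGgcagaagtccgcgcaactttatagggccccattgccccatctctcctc
Zrsr1: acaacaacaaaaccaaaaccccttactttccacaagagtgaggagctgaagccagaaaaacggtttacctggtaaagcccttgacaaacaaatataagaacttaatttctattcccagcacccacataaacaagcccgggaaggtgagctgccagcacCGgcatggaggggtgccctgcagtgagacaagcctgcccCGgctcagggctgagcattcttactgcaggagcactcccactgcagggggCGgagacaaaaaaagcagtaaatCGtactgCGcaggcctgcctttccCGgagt
Abca14: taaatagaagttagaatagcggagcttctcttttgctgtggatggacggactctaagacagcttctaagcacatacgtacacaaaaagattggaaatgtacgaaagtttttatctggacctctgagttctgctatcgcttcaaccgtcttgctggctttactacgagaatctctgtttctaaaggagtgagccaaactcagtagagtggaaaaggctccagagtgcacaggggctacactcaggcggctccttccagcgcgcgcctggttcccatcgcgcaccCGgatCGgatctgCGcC
Eef1akmt2: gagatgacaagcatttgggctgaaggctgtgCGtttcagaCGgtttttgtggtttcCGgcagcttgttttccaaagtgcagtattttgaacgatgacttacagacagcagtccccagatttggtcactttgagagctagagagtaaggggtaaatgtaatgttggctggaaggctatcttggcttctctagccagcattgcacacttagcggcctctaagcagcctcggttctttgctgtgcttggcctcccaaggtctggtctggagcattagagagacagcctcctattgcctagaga
In the Igf2r window, 14 tested cytosines had 52.1% methylation in vehicle replicate 2, 59.2% and 66.6% with C29, 28.6% and 17.1% with 5-azadC, and 48.7% and 67.7% with C29+5-azadC, on at least 683 reads. The libraries with 5-azadC alone were therefore the lowest, and those with both drugs were not. The 7 tested cytosines of the Zrsr1 window had 48.3% in vehicle replicate 2, 44.8% and 55.5% with C29, 72.4% and 62.5% with 5-azadC, and 46.7% and 28.5% with C29+5-azadC, on at least 191 reads. There 5-azadC alone was the highest. In the Gnas window, 9 cytosines ranged from 21.5% in C29 replicate 2 to 62.8% in 5-azadC replicate 2, on at least 147 reads, so the groups overlapped. The 4 cytosines of the Abca14 window had 11.4% in vehicle replicate 2, 20.3% and 8.71% with C29, 52.5% and 19.6% with 5-azadC, and 29.3% and 50.8% with both drugs. Of the libraries with 5-azadC, the lowest thus lay between the C29 libraries and the others above both. The 3 cytosines of the Eef1akmt2 window were at 100% in vehicle replicate 2 and at 1.75% and 80.5% with 5-azadC, on at least 36 reads. The 5-azadC replicates thus differed from each other more than replicates of any other group did.

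Over all promoters of intermediate methylation, the mean was 36.7% in vehicle replicate 1, which chose them, and 35.4% in vehicle replicate 2. It was 33.6% and 28.6% in the C29 libraries, 30.0% and 31.2% with 5-azadC, and 32.4% and 30.7% with C29+5-azadC. All treated libraries had means below vehicle replicate 2, and C29 replicate 2 had the lowest. Means of the treated groups were 31.1% ± 3.49 under C29, 30.6% ± 0.849 under 5-azadC and 31.6% ± 1.16 under the combination (SD, n = 2 libraries each). Over all 11576 promoters the means lay between 8.65% and 10.1%.

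**Figure D1:**
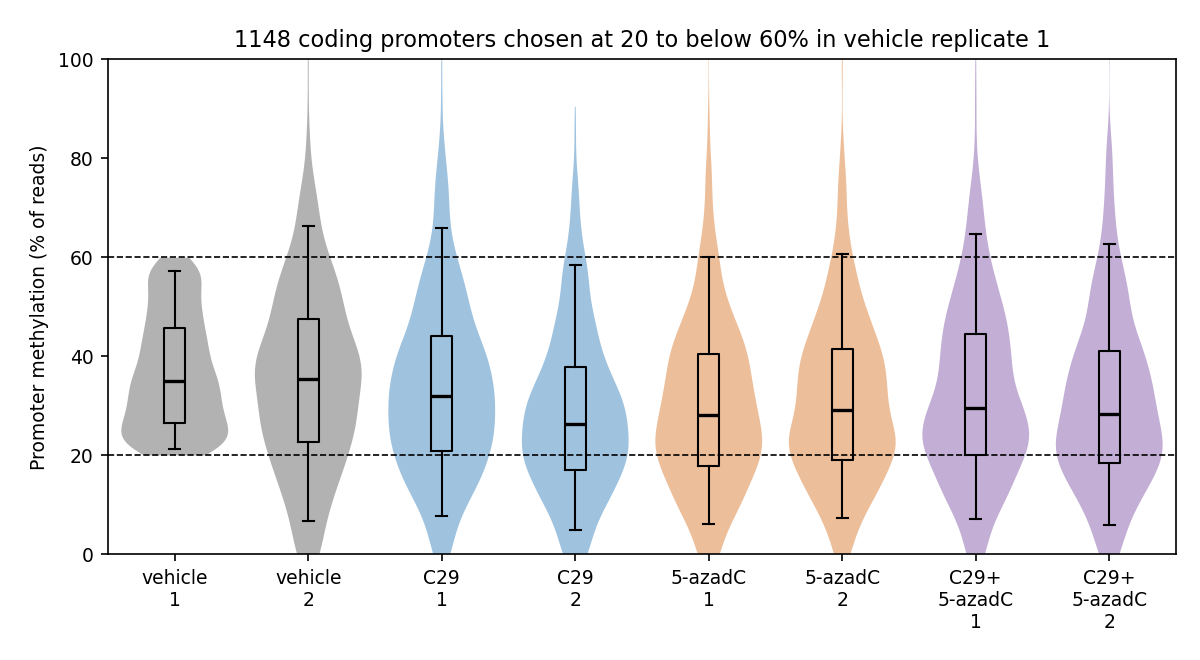
Methylation (%, vertical axis) of the 1148 promoters in each of the 8 libraries (horizontal axis, by group and replicate). Violins show the distribution, boxes the quartiles with the median, whiskers the 5th and 95th percentiles, and dashed lines the limits of 20% and 60%; vehicle replicate 1 lies within the limits by choice, while in vehicle replicate 2 245 promoters lay below 20% and 101 at 60% or more.

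The plot of values by library shows how the set spread out beyond the limits that chose it. In vehicle replicate 2, 802 of the 1148 promoters (69.9%) were again within 20% to 60%, 245 had dropped out below and 101 above. The number below 20% was 266 and 378 in the C29 libraries, 339 and 305 with 5-azadC, and 287 and 337 with the combination. At 60% or more there were 88 and 54, 59 and 61, and 87 and 69. All treated libraries thus had more of the set below 20% than vehicle replicate 2 and fewer at 60% or more. The same rule applied to vehicle replicate 2 would have taken 1197 promoters, of which the shared 802 are 67.0%. Within the 7 libraries that played no part in the choice, 297 promoters (25.9%) lay between 20% and 60% in all 7, and 48 (4.18%) in none. Of those in none, Nipsnap3b was at 20.4% in vehicle replicate 1 and between 0% and 6.85% in the other libraries. Tpm2, a tropomyosin of muscle fibers, was at 24.2% there and between 7.15% and 14.1% elsewhere.

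**Figure D2:**
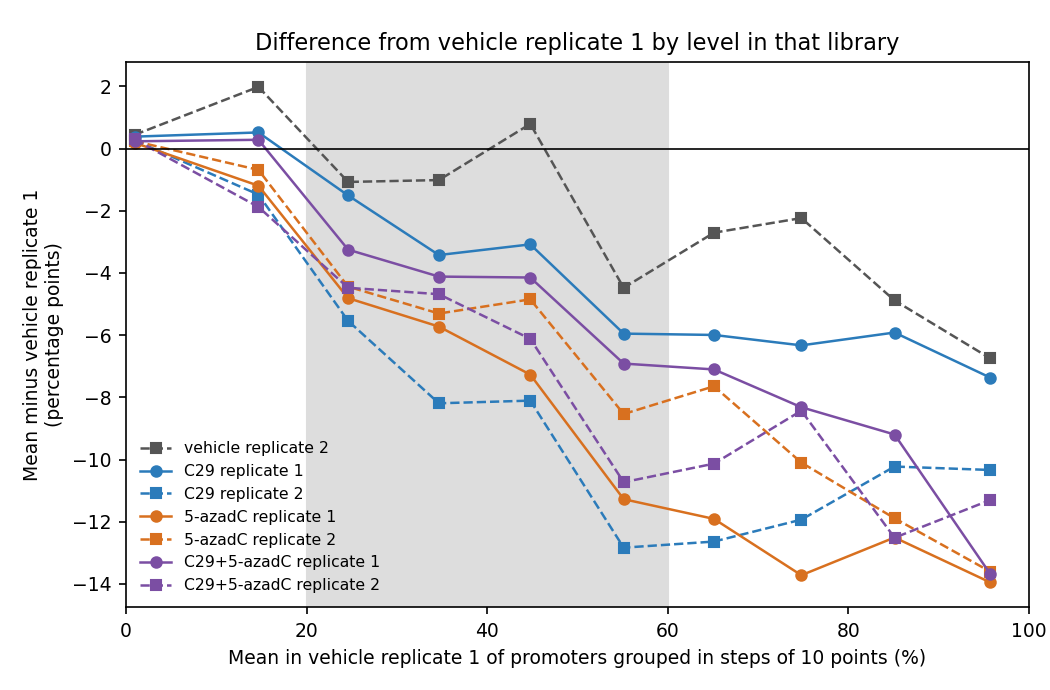
Mean methylation in each of 7 libraries minus that in vehicle replicate 1 (vertical axis, percentage points) for promoters grouped by their level in vehicle replicate 1 (horizontal axis, %), with the intermediate range shaded. In vehicle replicate 2 promoters at 10% to 20% were 1.98 points higher and those at 90% to 100% differed by -6.75 points from the library that grouped them.

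A value that chose a promoter carries its own error, so part of the difference of a second library comes from the choice (regression to the mean). The plot of differences by level shows promoters below 20% higher, and those of 50% or more lower, in vehicle replicate 2. The 677 promoters at 10% to 20% in vehicle replicate 1 differed by 1.98 points on average, and the 200 promoters of the set at 50% to 60% were at 50.6%, a difference of -4.48 points. In between, the differences were -1.07 points at 20% to 30% (403 promoters), -1.01 at 30% to 40% (319) and 0.792 at 40% to 50% (226). Against vehicle replicate 2, which carries no such choice, promoters of the 4 bins stood lower with every treatment. With 5-azadC these differences were -3.55, -4.50, -6.85 and -5.43 points from the lowest to the highest bin, with C29 -2.45, -4.79, -6.39 and -4.92, and with the combination -2.79, -3.39, -5.93 and -4.34. The 3 sets of differences share vehicle replicate 2, so a deviation of that library enters all of them.

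Replicates of one group differed at these promoters far more than at promoters below 20%, and less than at those of 60% or more in each treated group. The median absolute difference between replicates was 8.78 points in C29, 7.45 in 5-azadC and 8.35 in C29+5-azadC, beside 0.646 to 0.664 over all promoters and 10.2, 10.1 and 10.7 at promoters of 60% or more. The range over the 7 libraries had a median of 25.4 points, against 2.18 over all promoters and 29.4 for promoters at 60% or more. A difference of 25 points or more between replicates was seen in 12%, 7.32% and 10.5% of the set in these 3 groups, beside 2.39%, 1.99% and 2.32% of all promoters and 15.4%, 15.4% and 15.1% of those at 60% or more. The spread followed the number of cytosines. Promoters with 3 to 5 tested cytosines (245) had a median range of 38.3 points, those with 11 to 20 (286) 24.3 points, and those with 41 or more (114) 15 points. The median of the lowest read number went from 94 to 1816.5 along the same classes, so cytosine number and depth cannot be told apart here. Promoters within 20% to 60% in all 7 libraries had a median of 22 cytosines, against 13 for the whole set.

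Some promoters were nearly constant. Among promoters with 100 reads or more in each library, Tshz3, a zinc finger regulator of development, had 20.5% in vehicle replicate 2, 20.6% and 16.7% with C29, 16.9% and 17.7% with 5-azadC, and 19.8% and 21.3% with C29+5-azadC, on 75 cytosines and at least 2346 reads. Its range of 4.65 points was the smallest of the 994, and the libraries with and without 5-azadC overlapped. At the other end, Gzma, which encodes a protease of cytotoxic lymphocytes, ranged over 81.8 points on 5 cytosines, from 0% to 81.8%. Both extremes were libraries with 5-azadC, with C29 (0%) and alone (81.8%). Hoxd1 followed with a range of 78.2 points, then Trank1 (10.6% to 79.5%) and Gm14322 (6.67% to 74.1%).

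Of the gene lists, imprinted genes and developmental transcription factors supplied many promoters of intermediate methylation, and both are described first. Imprinted genes had 13 such promoters among 43 tested (30.2%), against 9.92% of all promoters, with 19 below 20% and 11 at 60% or more. In 8 of the 13 the value was within 20% to 60% in all 7 libraries. Zrsr1, a paternally expressed gene related to a splicing factor, had 52.4% in vehicle replicate 2, 44.1% and 56.4% with C29, 52.1% and 48.7% with 5-azadC, and 47.6% and 49.2% with both drugs (33 cytosines, at least 1086 reads). The libraries of Zrsr1 with and without 5-azadC overlapped, and all lay within 12.3 points of each other. Magel2, a gene of the Prader-Willi region, had 36.8%, then 48.1% and 39.5%, 44.3% and 49.5%, and 45.5% and 44.3% in the same order. Its lowest value was that of vehicle replicate 2. Asb4, part of a ubiquitin ligase, had 36.2%, 36.3% and 32.4%, 35.2% and 32.7%, and 29.5% and 31.9%, a range of only 6.77 points. Peg12 ranged from 32.4% to 50.6%, Ppp1r9a (neurabin) from 33.2% to 55.7%, and Slc22a3, an organic cation transporter, from 22.2% to 45.2%. Dlk1, a Notch ligand of imprinted expression, had 62.3% in vehicle replicate 2, 56.2% and 44.1% with C29, 41.5% and 42.8% with 5-azadC, and 56.6% and 56.3% with both. Calcr, the calcitonin receptor, was at 28% in the library that chose it and between 5.38% and 16.1% in the others.

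Igf2r, the receptor that carries IGF2 to lysosomes, had a wide range. Its 22 cytosines had 59.9% in vehicle replicate 2, 58.7% and 59.3% with C29, 40.4% and 21.4% with 5-azadC, and 49.95% and 63.7% with the combination. The libraries with 5-azadC alone were the lowest, and the logistic test of reads described later called this difference from vehicle replicate 2 (-31.4 points), while the adjusted p of edgeR over the 7 libraries was 0.989. Vehicle replicate 1, which chose Igf2r and is no control, was at 36.8%, between the 5-azadC replicates. C29+5-azadC, however, was called higher than 5-azadC by 28.5 points. Gnas was tested only at the start site of the annotated gene, where the antisense gene Nespas overlaps the window printed above. Other start sites within the gene were not tested. This promoter had 37.7% in vehicle replicate 2, 37.1% and 36.5% with C29, 28.7% and 41.1% with 5-azadC, and 44.6% and 54.4% with both drugs. The values with both drugs were the highest of the 7.

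Peg3, a paternally expressed zinc finger gene, and the neighboring Usp29, a ubiquitin protease, share the same 4 tested cytosines. They had 26% in vehicle replicate 2, 47.8% and 29% with C29, 60.9% and 75.6% with 5-azadC, and 91.1% and 83.4% with C29+5-azadC, on at least 151 reads. All 4 libraries with 5-azadC were above the 3 without, by 43.5 points on average, the largest gap upward among non-overlapping promoters with at least 100 reads in each library. The adjusted p of limma on arcsine values was 0.450 and that of edgeR 0.989, so neither fit called it.

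Developmental transcription factors gave 80 promoters of intermediate methylation of 175 tested (45.7%), with 78 below 20% and 17 at 60% or more. Of the 80, 32 stayed between 20% and 60% in all 7 libraries, and their median range was 20.8 points. Hox genes, which set position along the body axis, had 16 of 32 promoters in the set, with 5 of 10 in the Hoxa cluster, 2 of 6 in Hoxb, 4 of 8 in Hoxc and 5 of 8 in Hoxd. Hoxa11 had 55.6% in vehicle replicate 2, 51.6% and 44.7% with C29, 56.0% and 53.0% with 5-azadC, and 52.6% and 51.9% with both drugs (34 cytosines). C29 replicate 2 was the lowest, and the other 6 lay within 51.6% to 56.0%. Hoxd1 was unstable, at 78.2% in vehicle replicate 2, 47.5% and 0% with C29, 39.0% and 51.7% with 5-azadC, and 60.5% and 22.4% with the combination (12 cytosines, at least 188 reads). Hoxd3 and Hoxd4, which share their 12 tested cytosines, ranged from 25.5% to 73.3%, with both extremes in the C29 libraries. Other families with promoters in the set were Pax (4 of 6), Sox (6 of 12), Nkx (5 of 8), Zic (3 of 3), Dlx (3 of 6), Pou (3 of 6), Lhx (3 of 8), Tbx (3 of 8), Fox (3 of 11), Gata (2 of 4), Neurog with Neurod (2 of 5), the family of Six6 (1 of 4), Tfap2 (1 of 3) and Tlx (1 of 3), while Irx had 0 of 6, all of them below 20%.

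The developmental factors with the most reads had no range as wide as that of Hoxd1. Nkx6-1, a factor of pancreas and spinal cord, had 34.4% in vehicle replicate 2, 37.1% and 29.7% with C29, 40.8% and 30.6% with 5-azadC, and 47.1% and 29.1% with both (92 cytosines, at least 3043 reads). Sox7, a factor of vessels and endoderm, had 32.9%, 39.5% and 35.5%, 31.3% and 35.9%, and 31.7% and 34.9% in the same order. Gata5 ranged from 22.1% to 33.2%, Zic2 from 25.6% to 43.6% and Tlx3 from 31.2% to 43.6%. In all of these the libraries with and without 5-azadC overlapped. Foxl2, a factor of the ovary, had 34.6% in vehicle replicate 2 and 13.1% to 29% in the treated libraries. The list's members had a median difference of -1.0 points for libraries with 5-azadC against those without and -2.63 points for C29, beside -1.37 and -1.07 for the whole set of intermediate promoters. Both lists' counts describe these libraries, and no test of a list was made.

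**Figure D3:**
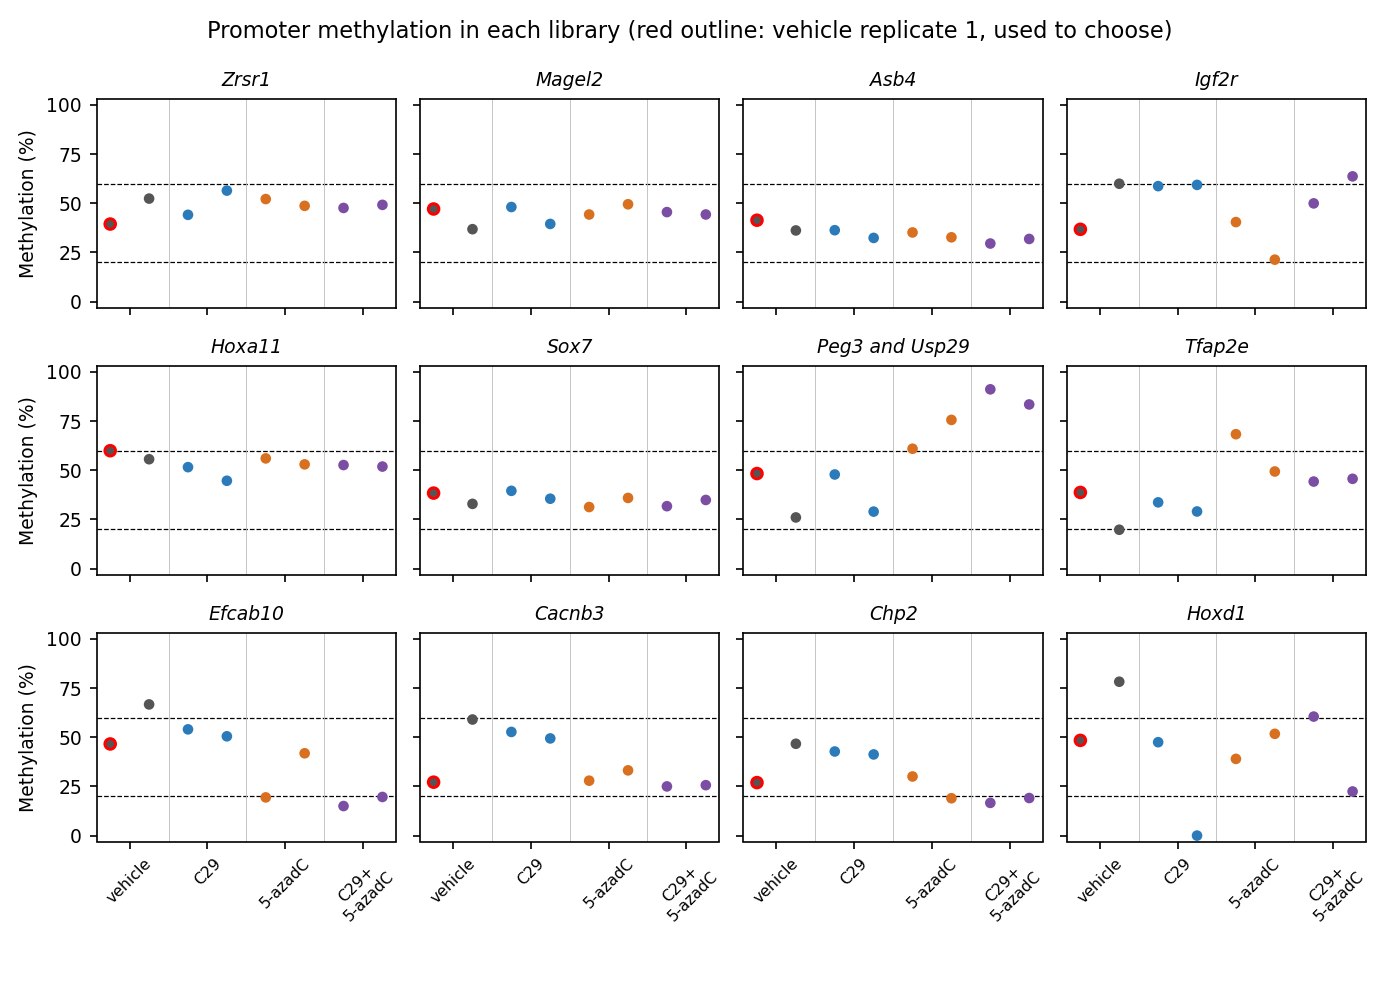
Promoter methylation (%, vertical axis) of 12 named promoters in each library, by group (horizontal axis), with the 2 replicates of a group side by side and vehicle replicate 1 outlined in red; dashed lines mark 20% and 60%. Sox7 stayed within 31.3% to 39.5% in the 7 libraries that did not choose it, whereas Hoxd1 ran from 0% to 78.2%.

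The panels of single promoters show libraries with and without 5-azadC that overlapped at Zrsr1, Magel2, Asb4, Hoxa11 and Sox7. At Peg3, Tfap2e, Efcab10, Cacnb3 and Chp2 these libraries did not overlap, the property by which these promoters were named. Of the other lists, genes of the germline and of pluripotency had 7 promoters of intermediate methylation among 37 tested, while 25 were at 60% or more. Tdrd6, of the germ granule, had 57.1% in vehicle replicate 2, 43.0% and 30.6% with C29, 49.7% and 44.2% with 5-azadC, and 51% and 39.9% with the combination. Sall4, a pluripotency factor, had 1.75%, 30.2% and 45.6%, 26.5% and 15.7%, and 32.0% and 40.6% on 4 cytosines. Vehicle replicate 2 was the lowest library of Sall4, and the one that chose it was at 27.8%. Lin28a, an RNA-binding protein of stem cells, behaved alike, at 4.96% in vehicle replicate 2, 12.7% to 33.7% in treated libraries and 25.8% in the one that chose it.

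Genes often methylated in breast cancer had 10 of 37 promoters in the set, 25 below 20% and 2 at 60% or more. Hic1, a transcriptional repressor, had 44.4% in vehicle replicate 2, 24.2% and 13.4% with C29, 20.9% and 32.5% with 5-azadC, and 18% and 20.5% with both drugs. All treated libraries of Hic1 were lower than vehicle replicate 2. The contrast rests on that 1 library, since vehicle replicate 1 (28.8%) chose Hic1 and is no control. Slit3, an axon guidance ligand, had 26.8%, 17.5% and 22.7%, 12.9% and 15.1%, and 16.6% and 19% in the same order, and here too vehicle replicate 2 was the highest of the 7. Pgr, the progesterone receptor, ranged from 24.5% to 44.0%, and Cdh13 (T-cadherin) from 8.41% to 28.1%. Igfbp3, which binds IGFs, was at 30.2% when chosen and at 8.46% to 20.6% in the other libraries. Of the mammary epithelial and hormone receptor genes, 4 of 30 were intermediate: Pgr, Myh11, Tnfsf11 and Zeb2. Tnfsf11 (RANKL) ranged from 11.6% to 22.5%. Myh11, a myosin of smooth muscle and myoepithelium, had 52.7% in vehicle replicate 2, 63.9% and 41.5% with C29, 31.0% and 35.5% with 5-azadC, and 48.3% and 27.7% with both, so the libraries with and without 5-azadC overlapped.

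Genes of DNA methylation and the methionine cycle had 3 of 29 promoters in the set, and 24 were below 20%. Uhrf2, a reader of hemimethylated and hydroxymethylated DNA, ranged from 14.4% to 25.2% on 41 cytosines. Mat1a, which makes S-adenosylmethionine, had 11.9% in vehicle replicate 2, 34.0% and 25.7% with C29, 27.6% and 28.6% with 5-azadC, and 10.9% and 12.6% with C29+5-azadC on 4 cytosines. The libraries with both drugs were near vehicle replicate 2 and those with single drugs above it, a comparison that rests on 1 vehicle library. Vehicle replicate 1, which chose Mat1a and is no control, was at 26.5%, within the range of the single drugs. Zbtb38, a methyl-CpG binder, was at 0% in 4 of the 7 libraries and at 27.8%, 36.8% and 52.0% in the other 3, C29 replicate 2 and both of C29+5-azadC, on 3 cytosines. C29 replicate 1 was among those of Zbtb38 at 0%, and vehicle replicate 1 was at 22.9%. Of 61 genes of oxidative metabolism, only Esrrg, a receptor of the ERR family, was intermediate, with 40.7% in vehicle replicate 2, 23.7% and 27.4% with C29, 30.2% and 30.4% with 5-azadC, and 46.2% and 33% with both drugs. Here the combination was not below the single drugs.

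Interferon and antigen presentation genes gave 3 of 25 promoters (Psmb8, Cd274 and Irf9). Psmb8, an immunoproteasome subunit, ranged from 41.6% to 75.1%, both extremes again being C29 libraries. Zinc finger genes named Zfp were seldom intermediate (8 of 239, with 226 below 20%), and none of the 8 stayed within 20% to 60% in all 7 libraries. Clustered protocadherins had 3 of 7, and olfactory and related receptors 1 of 6 (Olfr1474, 21.6% to 40.4%). Of host lists, leukocyte genes had 0 of 3, and endothelial and fibroblast genes 6 of 12, none of which stayed within the limits in all 7 libraries. Pparg, the adipocyte receptor, ranged from 16.9% to 39.0%. Col1a2 had 21% in vehicle replicate 2, 19.4% and 11.2% with C29, 23.3% and 34.7% with 5-azadC, and 57.6% and 56.8% with C29+5-azadC on 4 cytosines. Its libraries with 5-azadC were all above those without, and the part of host cells in that was not tested. The remaining 1012 promoters of the set belonged to none of the lists, out of 10882 tested (9.30%).

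The question of the design is whether each drug changed methylation. For 5-azadC, which takes away the enzyme that maintains methylation, the 4 libraries with it averaged 31.1% at these promoters and the 3 without it 32.5%, a difference of -1.45 points. Over all promoters the same difference was -0.536 points, and at promoters of 60% or more -3.83. The value rests on single libraries. Without vehicle replicate 2 it was -0.0118 points, without C29 replicate 2 -3.40 and without C29 replicate 1 -0.933. Against vehicle replicate 2 alone, the 5-azadC group was at -4.79 points. These are descriptions without a test.

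By edgeR's quasi-likelihood fit over the 7 libraries, 0 intermediate promoters were called for 5-azadC at an adjusted p below 0.05, beside 0.00917% of all promoters (1 of 10905, Gm10800, named after its value was seen, which was at 60% or more). Only 4 of the 1148 (0.348%) had an unadjusted p under 0.05. The fit shares its dispersion with the many promoters near 0%, and intermediate promoters had fewer such p-values than all promoters (3.31%). Limma on logit values called 0 as well, with 13 at an unadjusted p under 0.05 (608 of 10905 over all promoters). Limma on arcsine values, a scale chosen after seeing the data, also called 0. It had 78 at an unadjusted p under 0.05 (6.79%), of which 49 were lower with 5-azadC and 29 higher, beside 3.32% and 1.23% of all promoters in these directions. Over all promoters the share at an unadjusted p under 0.05 was 4.55%, and the difference between the shares was not tested.

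Promoters in which the 4 libraries with 5-azadC did not overlap the 3 without were counted next. In 51 of the set (4.44%) all libraries with 5-azadC were below, against a background of 3.01% of all promoters, and in 23 (2.00%) all were above, against 1.51%. Both shares were near background and were not tested against it, and promoters at 60% or more had 8.0% below and 1.93% above. The median difference of the set was -1.37 points, with 653 of 1148 below 0 (56.9%, against 49.4% of all promoters). Differences of 10 points or more were downward in 159 and upward in 91, beside 402 and 173 of all 11576. Efcab10 had the largest gap downward of those with 100 reads. It had 66.7% in vehicle replicate 2, 54.0% and 50.5% with C29, 19.4% and 41.8% with 5-azadC, and 15% and 19.6% with both drugs (6 cytosines, at least 153 reads), 24.0% ± 12.1 with and 57% ± 8.52 without 5-azadC (SD, n = 4 and 3). Cacnb3, a calcium channel subunit, had 59.0%, 52.7% and 49.4%, 27.9% and 33.2%, and 25% and 25.6% in the same order. The 4 libraries with 5-azadC were close together and far below the rest (27.9% ± 3.70 and 53.7% ± 4.88, SD). Chp2, a cofactor of sodium-proton exchangers, had 46.7%, 42.7% and 41.2%, 30.04% and 18.98%, and 16.6% and 19.09%, so the libraries with 5-azadC were again all the lower ones. The other 5 with the largest gaps downward were Hnrnpl, a splicing regulator (-28.1 points), Trim72, a membrane repair protein of muscle (-27.9), Eef1akmt2, a methyltransferase of translation elongation factor 1A (-25.4), Cbfa2t3, a transcriptional corepressor (-24.8), and P2rx7, an ATP-gated channel (-22.7). Vehicle replicate 1, whose value the choice held below 60% and which cannot serve as a control, had 46.6% at Efcab10, 29.5% at Hnrnpl, 43.9% at Trim72, 27.1% at Cacnb3, 54.6% at Eef1akmt2, 31.7% at Cbfa2t3, 23.04% at P2rx7 and 26.9% at Chp2. At Hnrnpl, Trim72, Cacnb3, Cbfa2t3 and Chp2 this lay within the range of the libraries with 5-azadC.

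Upward, after Peg3 with Usp29 and Col1a2 came Tfap2e and Abca14. Tfap2e, a factor of the AP-2 family, had 19.8% in vehicle replicate 2, 33.7% and 29% with C29, 68.3% and 49.4% with 5-azadC, and 44.3% and 45.7% with both drugs (19 cytosines, at least 348 reads). The gap was 24.4 points. Abca14, an ABC transporter whose sequence is printed above, had 12.9%, 21.6% and 8.04%, 48.8% and 22.5%, and 33.5% and 36.9%. Its lowest library with 5-azadC was less than 1 point above the highest without. Vehicle replicate 1, again no control, had 48.3% at Peg3 and Usp29, 28.4% at Col1a2, 38.7% at Tfap2e and 26.8% at Abca14, within the range of the libraries with 5-azadC at Col1a2 and Abca14.

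For C29, the 4 libraries with it averaged 31.3% and the 3 without it 32.2%, a difference of -0.880 points, beside -0.128 over all promoters. Without vehicle replicate 2 it was 0.717 and without C29 replicate 2 0.0183, so its direction turned on these libraries. It was -1.62 without C29 replicate 1, -1.98 without 5-azadC replicate 1 and -1.38 without 5-azadC replicate 2. By edgeR 0 promoters of the set were called (0% of all promoters), with 5 at an unadjusted p under 0.05 (0.436%, against 3.42% of all promoters). Limma called 0 on logit values, with 20 at an unadjusted p under 0.05 (588 of 10905 over all promoters), and 0 on arcsine values, with 53 (4.62%, against 4.05%). Of these 53, 24 were lower and 29 higher, beside 2.63% and 1.42% of all promoters. All C29 libraries were below the 3 without in 35 promoters (3.05%, background 2.13%) and above in 24 (2.09%, background 1.48%).

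Glra1, a glycine receptor subunit, showed the largest gap downward with C29 among those with 100 reads. It had 40.8% in vehicle replicate 2, 74.3% and 54.9% with 5-azadC, 25.1% and 14.7% with C29, and 25% and 26.7% with both drugs, on 5 cytosines. Plscr4, a phospholipid scramblase, had 50.2%, 62.2% and 61.2%, 37.2% and 10.7%, and 27.4% and 27.8% in that order, and Tspan15, a tetraspanin, 22.9%, 28.8% and 41.9%, 7.20% and 10.2%, and 0% and 0.459%. In all 3 the 5-azadC libraries were the highest, so part of the gap lay between single treatments and not against vehicle. Upward, Zfp169 and A830005F24Rik, which share 6 cytosines, had 49.6% with C29 and 21.4% without, and AA986860 had 33.3% and 9.51%. The library that chose them had 47.1% at Glra1, 33.95% at Plscr4, 24.8% at Tspan15, 41.03% at Zfp169 and A830005F24Rik and 28.8% at AA986860, which lay within the range of the C29 libraries at all but Glra1 and Tspan15.

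The logistic likelihood-ratio test, used by the authors' package methylKit, sums reads per promoter and calls a q below 0.01 with a difference of 25 points or more. Run against vehicle replicate 2 it compares the reads of these libraries, not the conditions, since 1 library stood for vehicle. With C29, 82 of the 1148 promoters (7.14%) were called, 61 lower (background over all promoters 1.23%) and 21 higher (0.492%). With 5-azadC there were 101 (8.80%), 80 lower (background 1.6%) and 21 higher (0.354%), and with C29+5-azadC 96 (8.36%), 67 lower (1.49%) and 29 higher (0.466%). The share called was larger than background throughout, but promoters at 60% or more were called more often still (10.7%, 12.4% and 12.4%) and those below 20% rarely (0.461%, 0.420% and 0.472%). Promoters near 0% in every library cannot differ by 25 points, and 84.3% of all promoters were below 20% in vehicle replicate 1. The background of this test, here and below, is therefore low by level, and an excess over it is no result about the set. In 80, 100 and 93 of the called promoters neither treated library lay on the other side of vehicle replicate 2. The counts share that library as control, and an edgeR fit of the 4 groups called 0 in each of the 3 comparisons. Without C29 replicate 1 the C29 count was 160, and without C29+5-azadC replicate 2 the count of the combination was 154, both given without a background.

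The same test was applied to replicates of one group, 1 library against 1. Between the C29 libraries it called 138 promoters of the set (12%, background 2.39%), 103 of them lower in replicate 2. Between the 5-azadC libraries it called 84 (7.32%, background 1.99%), 40 lower and 44 higher in replicate 2, and between those of C29+5-azadC 120 (10.5%, background 2.32%), 69 lower and 51 higher. In the same form, a single treated library against vehicle replicate 2, C29 gave 112 (replicate 1; 63 lower, 49 higher) and 160 (replicate 2; 128 and 32). 5-azadC gave 139 (replicate 1; 102 and 37) and 127 (replicate 2; 89 and 38), and C29+5-azadC 154 (replicate 1; 100 and 54) and 136 (replicate 2; 96 and 40). The number between replicates lay between these counts for C29 and below them for 5-azadC and the combination. All counts against vehicle replicate 2 share that library, so a deviation of it enters each of them. They are given without a background over all promoters and do not set treatment apart from the spread of replicates. The differences between counts were not tested.

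Adding C29 to 5-azadC is a comparison that needs no vehicle library. Between these groups 35 promoters of the set were called (3.05%), 18 lower with C29+5-azadC (background 0.346%) and 17 higher (0.371%), with a median difference of 0.696 points. This compares the reads of 2 libraries against 2 and leaves out the spread between pools. An edgeR fit of the 4 groups called 0 here. With at least 6 cytosines per promoter the logistic test called 16 of 903, given without a background over all promoters. The directions were nearly equal at the limit of 25 points. At 10 points 121 were lower and 187 higher, given without a background over all promoters. In Igf2r the combination was 28.5 points higher, in Glra1 and Tspan15 the differences were -38.4 and -38.6 points, and in Tdrd5, a Tudor protein of the germline, the libraries were at 24.8% and 24.1% against 32.3% and 63.0% (-25.6 points). The count was 67 without 5-azadC replicate 1 (37 lower, 30 higher), 79 without 5-azadC replicate 2 (36 and 43), 74 without C29+5-azadC replicate 1 (30 and 44) and 81 without C29+5-azadC replicate 2 (30 and 51). These counts too have no background over all promoters here. An edgeR test of whether the effect of C29 differed with and without 5-azadC called 0 promoters, and in it 1 library stood for vehicle.

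Intermediate promoters were mostly not made of intermediate cytosines. In vehicle replicate 2, 43.4% of their 20777 tested cytosines were below 20%, 42.2% at 20% to 80% and 14.4% at 80% or more. Within a promoter the SD between cytosines had a median of 30.9 points, and 462 promoters (40.2%) had at least 50% of their cytosines between 20% and 80%. Of the 13 imprinted promoters 9 were at or above that mark, with a median SD of 22.2 points, and of the 80 developmental transcription factors 37 were, with 32.5 points. These values come from 1 library, and the lists were not tested. The share of cytosines at 80% or more was 11.3% and 7.25% with C29, 10.1% and 8.39% with 5-azadC, and 13% and 11.1% with the combination, so every treated library had fewer than vehicle replicate 2.

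**Figure D4:**
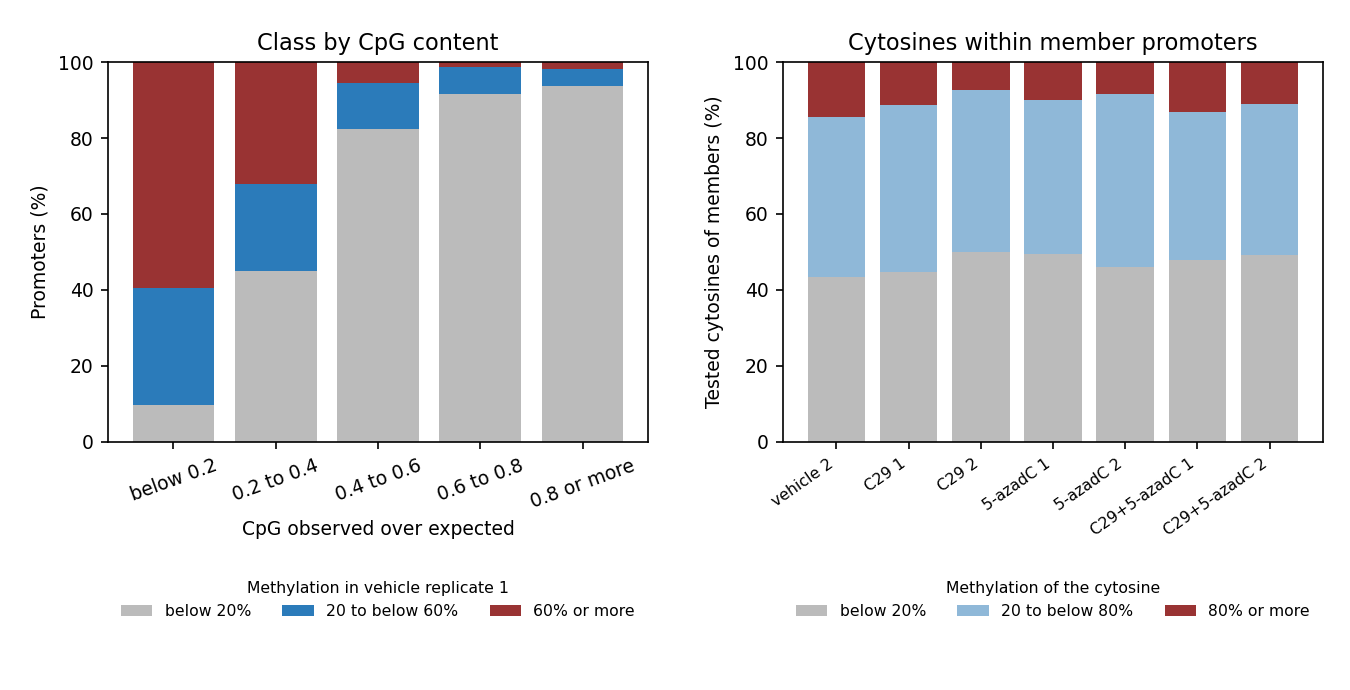
Left, share of promoters (%, vertical axis) in each methylation class of vehicle replicate 1, by the observed over expected CpG ratio of the promoter (horizontal axis). Right, share of the 20777 tested cytosines of intermediate promoters (%, vertical axis) by their own methylation in each of the 7 other libraries; 43.4% were below 20% in vehicle replicate 2.

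Methylation was higher farther from the start site. In vehicle replicate 2, cytosines 1000 to 800 bp before it had a mean of 43.0%, those within 200 bp before it 31.9%, those within 200 bp after it 32.0% and those 800 to 1000 bp after it 39.0%. Of 130 promoters with 2 or more cytosines both within 200 bp of the start and 1000 to 400 bp before it, the outer ones were higher in 84 and lower in 43, with means of 43.7% and 24.4%. On the downstream side, 218 promoters had 40.6% at 600 to 1000 bp and 28.2% near the start, higher outside in 130 and lower in 85. The difference with 5-azadC was -3.60 points at 800 to 600 bp before the start and -0.390 within 200 bp after it.

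**Figure D5:**
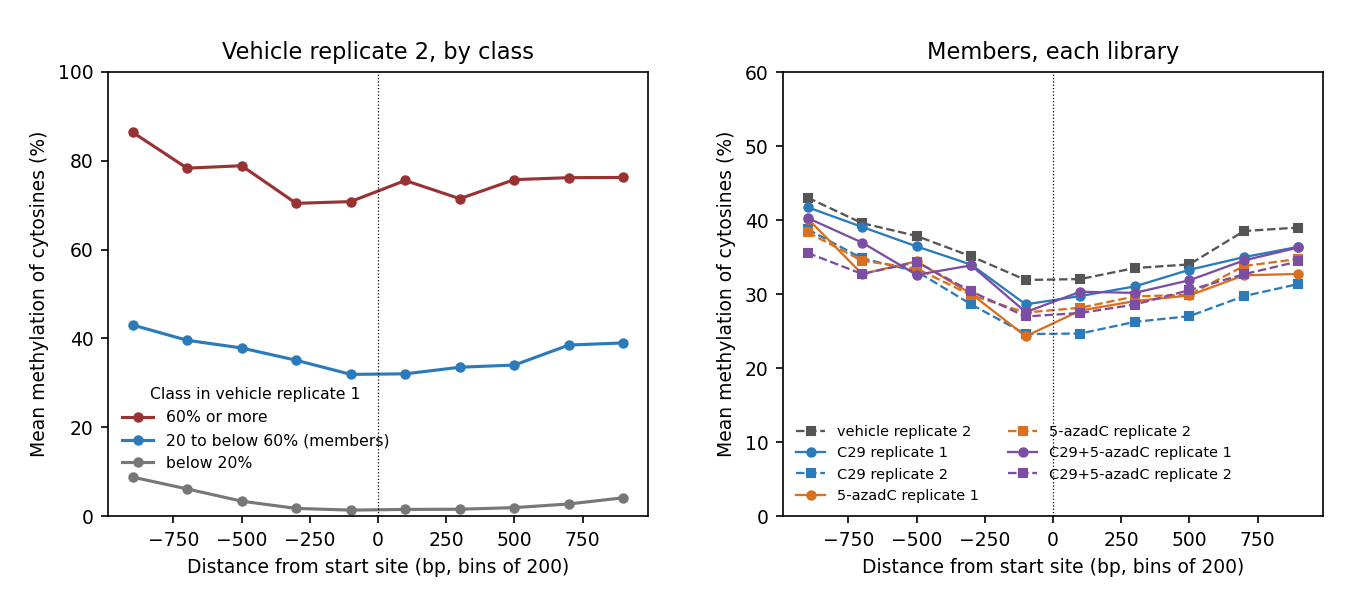
Mean methylation of tested cytosines (%, vertical axis) by distance from the start site (bp, horizontal axis, bins of 200 bp; negative is upstream). Left, the 3 classes of promoters in vehicle replicate 2; right, intermediate promoters in each of 7 libraries, all of which were lowest in a bin next to the start site, at 31.9% in vehicle replicate 2.

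The profile by distance shows the same dip in every library and the C29 replicate 2 line below the others downstream. The observed over expected CpG ratio of the promoter had a median of 0.547 in intermediate promoters, 0.655 below 20% and 0.383 at 60% or more, while GC content was nearly equal (55.3%, 55.2% and 52.0%). Of promoters with a ratio below 0.2, 31.0% were intermediate, of those at 0.2 to 0.4 22.9%, at 0.4 to 0.6 12.1%, at 0.6 to 0.8 7.20% and at 0.8 or more 4.51%, as the bars by CpG ratio show. The median difference with 5-azadC was -5.35 points in the lowest of these classes (26 promoters), -0.821 at 0.6 to 0.8 (367) and -1.76 at 0.8 or more (77). Developmental transcription factors of the set had a median ratio of 0.652, like promoters below 20%.

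From 250 bp before to 50 bp after the start site, on both strands, the ERR response element TNAAGGTCA was found in 6 intermediate promoters (0.523%; 0.700% of all promoters): Epha10, Hic1, Pnpla8, Ranbp17, Tdrd5 and Ttyh1. The E-box CACGTG was in 101 (8.80%; 10.3% of all) and the ETS site ACCGGAAGT in 5 (0.436%; 2.07% of all). These shares were not tested against each other, and a match describes letters only, since binding was not measured. By chromosome, intermediate promoters were 7.94% of those tested on chromosome 16 and 13.8% on chromosome 14, with all other autosomes between these values.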

How the data were processed

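RRBS of 8 libraries was used. According to the sample records, the authors trimmed reads with Trim Galore 0.4.1 after FastQC 0.11.8, aligned them to mm10/GRCm38 with Bismark 0.20.0 and used methylKit 1.7.0. The deposited files list, for each cytosine, a methylated fraction and a read count as the authors' pipeline made them. Fraction times count was checked to lie within 0.01 of a whole number at 99.9998% of listed cytosines, and the product was rounded to methylated reads. All 555155 autosomal cytosines with 10 or more reads in every library were cytosines of a CpG in the assembly.

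Reads were summed over the cytosines of each promoter (GENCODE M21). The drug effects were fitted over 7 libraries with edgeR 4.0.16 (quasi-likelihood, additive terms for both drugs, adjusted over all fitted promoters), which assumes that the lone vehicle library varies like the others. Limma 3.58.1 was used on logit values (0.5 reads added) and arcsine values. Promoters needed at least 1 methylated and 1 unmethylated read to be fitted, which left 10905. Both ran in R 4.3.3. The logistic test was written in Python 3.11.15, and other steps used NumPy 2.4.6, SciPy 1.17.1, pandas 2.3.3 and matplotlib 3.10.9. The fits and calls were tested on simulated data, and the outcomes are not shown.

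The promoters of intermediate methylation and the gene lists were chosen with earlier results of these data known. Genes named are, of each list, up to 6 with the most reads; of promoters with 100 reads in each library and no overlap, the 8 lowest and 5 highest with 5-azadC and 3 of each direction with C29; the 5 of smallest and of largest range; and the 2 nearest to each side of a limit. Dlk1, Slc22a3, Calcr, Hoxd3, Hoxd4, Six6, Gm10800 and the genes with a motif were named after their values were seen. Names on chromosome 18 are left out.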

Additional observations from a re-analysis of the deposited data

How the results depend on the processing

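Of 177 values computed under alternatives, 39 moved beyond the tolerance and 138 did not. For the mean differences of the drugs the tolerance, the SD between replicates of 2.18 points, is larger than the differences, so it says nothing about their stability. The number of intermediate promoters was 764 of 8695 tested with a minimum of 20 reads and 548 of 6235 with the upstream side of the window only. It was 545 with limits of 30% and 50% and 903 of 10110 with at least 6 cytosines per promoter. With at least 6 cytosines per promoter, 46 promoters were called for C29 against vehicle replicate 2, 49 for 5-azadC, 50 for C29+5-azadC and 16 for C29+5-azadC against 5-azadC. With the upstream side only, the first 2 counts were 47 and 66, and with 20 reads the last was 23. A limit of 10 percentage points instead of 25 gave 480, 486, 477 and 308, the last with 121 lower and 187 higher. For none of these settings is a background over all promoters given, and the sets differ in size, so these counts are not read as results about the set. An edgeR fit of the 4 groups called 0 in each of these comparisons, and the fit of C29+5-azadC against 5-azadC with the replicate block also called 0. Differences between replicates 1 and 2 had correlations below 0.1 across treated groups (-0.0541, 0.0926 and -0.0105), so replicate numbers were not used as pairs.

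The logistic test with terms for both drugs called 21 promoters for 5-azadC and 10 for C29 (55 and 34 of all 11576), where edgeR called 0. Leaving out single libraries gave 112 to 160 calls for C29 against vehicle replicate 2, 127 to 139 for 5-azadC, 136 to 154 for C29+5-azadC and 67 to 81 for C29+5-azadC against 5-azadC. The mean difference with 5-azadC lay between -3.40 and -0.0118 points, and with C29 between -1.98 and 0.717. The reported values are -1.45 and -0.880 points, and the sign for C29 turned positive without vehicle replicate 2 (0.717) and without C29 replicate 2 (0.0183). Other settings gave -2.49 to -1.17 and -2.0 to -0.757, where -2.49 and -2.0 include vehicle replicate 1, which chose the promoters. For 5-azadC, the 51 promoters with all its libraries below and 23 above became 46 and 36 of 1191 with the strands of a CpG summed. With the upstream side only they were 26 and 8 of 548. The calls between replicates of C29, 5-azadC and C29+5-azadC (138, 84 and 120) were 78, 44 and 64 of 903 with at least 6 cytosines. Counts without single libraries or under other settings are given without a background over all promoters. The cause of the moved counts was not tested.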

Other observations

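The X chromosome was left out of the comparisons. Of its 948 coding promoters 317 were tested, and 210 (66.2%) had 20% to 60% methylation in vehicle replicate 1, against 9.92% of autosomal promoters. Another 49 were below 20% and 58 at 60% or more. The mean of the 210 was 39.1% in vehicle replicate 1, 37.1% in vehicle replicate 2, 38.7% and 33.1% with C29, 36.2% and 38.4% with 5-azadC, and 38.5% and 37.9% with C29+5-azadC.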
